A study of Arabidopsis thaliana with 6 samples.

Results

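Distal binding regions of the transcription factor PIF4 are described here, meaning places where its peaks lay more than 2 kb from the body of any protein-coding gene. Overlap of 1 bp or more joined the nuclear peaks of 3 deposited lists into 15015 regions on chromosomes 1 to 5. Of these, 3042 regions had a peak of list 2 or list 3 and none of list 1. Each was placed at the summit of its peak with most tags in list 3, or in list 2 where list 3 had none. Distal regions numbered 375 of the 3042, or 12.3%, with an exact 95% interval of 11.2 to 13.5 that covers counting error only. The other regions were 1480 with a coding gene within 2 kb, called gene-near, and 1187 inside a coding gene. The regions were chosen by their peaks in the lists, which are measured values, and by their distance to genes. Peaks and distances are therefore given as description, and no test was run on any value below.

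The lists came from chromatin immunoprecipitation and sequencing of whole Arabidopsis thaliana seedlings. One group was a transgenic line that overexpresses Myc-tagged PIF4, called P1M in the study's design text, and the other was the wild type, which has no tagged protein. Both groups received 3 h of white light at 21 °C to start germination and 3 days of darkness, and the antibody was against Myc in both. There were 3 libraries of each, and each library pooled 4 ChIP assays of 2 biological replicates. The promoter of the transgene and the number of independent lines are not given in the sources used here. Wild-type libraries served as the controls of the peak calling and have no lists of their own.

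PIF4 is a basic helix-loop-helix protein that binds G-box and PBE-box elements, accumulates in darkness and is removed after light activates the phytochromes. It promotes elongation growth of the hypocotyl, in part through genes of auxin synthesis and response. In the compact genome of Arabidopsis most known regulatory elements lie close to the transcribed unit, while the regions around the centromeres are rich in transposons and poor in genes. No sequence was analysed here, so no element is located within the regions.

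The depth and the form of the lists set how they can be read. The file headers gave 9385807 treatment tags for list 2 and 12292381 for list 3, with 4093 and 2931 peaks. Lists 1 and 2 name the same control, and all tag values of list 1 are multiples of 5. Among the 211 distal regions with a peak in both lists 2 and 3, the peaks shared both edges to the base in 79 regions and the summit base in 98. Shared edges made up 37.4% of distal, 31.6% of gene-near and 22.8% of in-gene regions with both lists. Shared summits made up 46.4%, 56.0% and 56.2%. The summits lay within 50 bp of each other in 176 distal regions, or 83.4%, against 89.6% gene-near and 84.6% inside genes. Because edges and summits coincide to the base so often, the lists are not read as independent replicates. Every fold enrichment is the authors' value for 1 peak, the tags at the summit over the local expectation, and carries no replicate error. The authors' false discovery rate was high at these peaks, with a median of 65.4% in list 2 and 56.4% in list 3. These medians cover every distal region with a peak in the list, and a region without one has no rate there. Of the 211 distal regions with both lists, the rate was under 20% for 52 in list 2 and for 46 in list 3. It was at most 1% for 4 and 0 of them. The other regions had high rates too, with medians of 61.7% gene-near and 72.7% inside genes in list 2. In list 3 these were 64.2% and 76.5%. Of the 888 gene-near and 527 in-gene regions with both lists, 182 and 59 were under 20% in list 2, and 138 and 45 in list 3. With list 3 alone, 1 of 189 gene-near and 1 of 193 in-gene regions were under 20%. No region with list 2 alone was. At most 1% held for 19 and 3 in list 2 and for 0 in list 3.

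Distal regions were spread over all chromosomes and most lay a short way outside the 2 kb limit. Chromosomes 1 to 5 held 117, 58, 68, 49 and 83 of them, between 10.9% and 14.1% of each chromosome's regions of lists 2 or 3 without list 1. The median distance to the nearest coding gene was 3004 bp, with a lower quartile of 2353.5 and an upper quartile of 4450.5 bp. A distance of 2 to 3 kb was found for 187 regions, 3 to 5 kb for 115, 5 to 10 kb for 44 and over 10 kb for 29. The closest to the limit were beside AT1G06070 at 2003 bp, with folds of 2.44 in list 2 and 3.89 in list 3, AT1G62370 at 2007 bp with 3.08 in list 2 alone, and AT1G62480 at 2007 bp with 5.86 and 10.51. Just inside the limit, and therefore gene-near, were regions beside AT3G48450 at 1998 bp with 2.56 and 3.45 and SQE3 at 1994 bp with 6.92 and 10.3. The values on both sides of the limit overlap.

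Distal regions had median folds near or above those of the other regions, and narrower peaks with fewer tags. The rule used peaks of lists 2 and 3, so these values are a description. A peak in both lists was present in 211 distal regions, or 56.3%, against a background of 53.5% over all 3042 regions, which is a similar share. The share was 60% for gene-near regions and 44.4% for regions inside genes. A further 135 distal regions had a list 2 peak alone and 29 a list 3 peak alone. Over regions with both lists, the median list 2 fold was 3.08 for distal regions, with quartiles of 2.455 and 3.875, against 2.81 gene-near and 2.42 inside genes. The median list 3 fold was 4.99 for distal regions, with quartiles of 3.975 and 6.315, against 4.57 gene-near and 3.88 inside genes. Among regions with both lists the distal median thus stood highest of the 3 positions, although the quartile ranges of distal and gene-near regions overlap. Over all regions with a list 2 peak it did not, with 2.60 distal, 2.61 gene-near and 2.21 inside genes. Over all regions with a list 3 peak the medians were 4.825, 4.33 and 3.67. The distal peaks were narrower and held fewer tags. Their median width was 660 bp in list 2 and 648 bp in list 3, against 814 and 793 bp gene-near and 886 and 883 bp inside genes. Their median tag number was 134 and 111, against 178 and 147 both for gene-near regions and for regions inside genes. Regions with a single list had lower folds at each position. The distal median was 2.20 for list 2 alone and 3.49 for list 3 alone, against 2.21 and 3.66 gene-near and 2.03 and 3.23 inside genes.

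**Figure D1:**
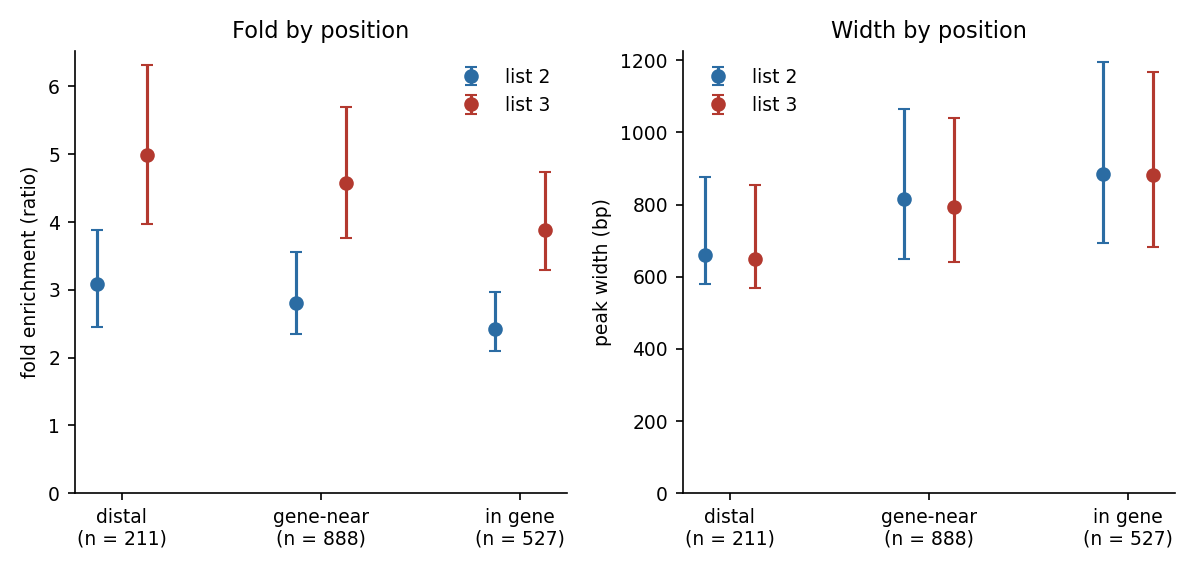
Fold enrichment (left, ratio) and peak width in bp (right) of regions with a peak in both lists, by position relative to coding genes; points are medians and bars the quartiles over regions, for list 2 in blue and list 3 in red. The 211 distal regions have the highest median folds, 3.08 and 4.99, and the smallest median widths, 660 and 648 bp.

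The lists ranked the distal regions alike, with higher folds in list 3. The list 3 fold exceeded the list 2 fold in 210 of the 211 regions, with a median ratio of 1.61 and a range of 0.818 to 3.08. The exception lay beside AT2G28690 on chromosome 2, 12310265 to 12311062, with folds of 4.13 and 3.38. The same held in 888 of 888 gene-near and 527 of 527 in-gene regions with both lists. Their median ratios were 1.61 and 1.62, so the higher list 3 fold is not particular to distal regions. Tags ran the other way and were more numerous in list 2 in 203 of the 211 distal regions, although list 3 had more tags in all. This was so for 833 of the 888 gene-near and 479 of the 527 in-gene regions. Scaled to the filtered tags of each list, list 2 had a median of 1.49 times as many tags as list 3 in distal regions. This ratio was 1.47 gene-near and 1.48 inside genes. Spearman's rho between the folds was 0.881 over the 211 regions and 0.839 over the 39 whose peaks share neither edge, given as a description of lists whose peaks coincide. It was 0.900 for gene-near regions and 0.889 inside genes.

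**Figure D2:**
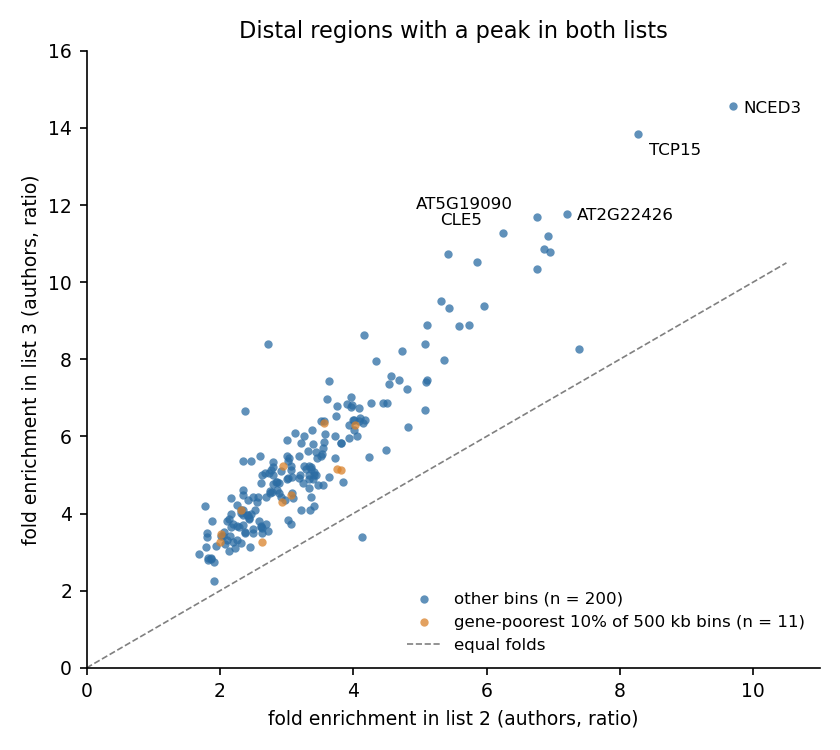
Authors' fold enrichment in list 2 (horizontal, ratio) against list 3 (vertical, ratio) for the 211 distal regions with peaks in both lists; each point is 1 region, orange points lie in the gene-poorest 10% of 500 kb bins, and the dashed line marks equal folds. All points but 1 lie above the line, and the region beside NCED3 stands at 9.70 and 14.56.

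The strongest distal region lay in the gap between NCED3 and CID9. NCED3 encodes the 9-cis-epoxycarotenoid dioxygenase that limits the rate of abscisic acid synthesis. The region spanned 4838701 to 4839358 on chromosome 3, 5032 bp from NCED3 and 10492 bp from CID9, with 217 tags in list 2 and 178 in list 3. Its fold was 9.70 in list 2 and 14.56 in list 3, the highest distal value of each. The same gap of 15523 bp held another region with both lists at 3.26 and 5.24, and 1 with list 2 alone at 1.89. All 3 lay on the NCED3 side of the gap, within 2359 bp of each other.

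The next region in list 3 fold lay beside TCP15, a gene for a TCP transcription factor that regulates cell proliferation and growth. It spanned 26213376 to 26214317 on chromosome 1, 2309 bp from TCP15, with folds of 8.28 and 13.83 and 258 and 179 tags. The gap of 9017 bp between AT1G69680 and TCP15 held 3 distal regions, the others at 4.54 and 7.35 with both lists and at 2.59 in list 2 alone. Folds in this gap were higher toward TCP15.

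Of the 12 strongest regions, 2 had a gene of a homeodomain-leucine zipper factor as the farther neighbour. Of 50 genes named HAT, ATHB or HB, 9, or 18%, flanked a gap with a distal region, against 2.21% of all coding genes, with weak regions among them. These genes were taken by name and were not checked to be of the homeodomain-leucine zipper class. A region on chromosome 2, 9520549 to 9521364, had folds of 7.20 and 11.77 and 220 and 183 tags. It lay 3636 bp from AT2G22426 and 4966 bp from HB6, a class I factor that acts in abscisic acid response. A region on chromosome 4, 9731243 to 9732123, had folds of 6.95 and 10.79 and lay 2306 bp from AT4G17440 and 7846 bp from HAT1. HAT1 belongs to class II, whose genes respond to shade. The class II gene HB-2, also called ATHB2, had a distal region at 9445547 to 9446419 on chromosome 4, 3043 bp away, with folds of 5.36 and 7.97 and 318 and 271 tags. These values describe position, and which of the flanking genes a region acts on was not measured.

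The gap between CLE7 and CLE5, genes for small signalling peptides of the CLE family, held 5 distal regions within 10219 bp, joint most of any gap. The strongest spanned 13246511 to 13247476 on chromosome 2, 4967 bp from CLE5 and 5253 bp from CLE7, with folds of 6.24 and 11.27. Its neighbours had 3.19 and 5.48 with both lists, 2.44 and 2.69 in list 2 alone, and 3.38 in list 3 alone. Both-list regions thus alternated with single-list ones over 3881 bp. The gap between AT5G19090 and AT5G19100 on chromosome 5, 17827 bp long, also held 5. The strongest, at 6395895 to 6396583, had folds of 6.76 and 11.69, with 208 and 166 tags, and its summit lay within the long non-coding RNA gene AT5G02965. The others had 2.60 and 5.49, 3.34 and 5.00, 3.61 and 6.96, and 5.82 in list 3 alone, the highest fold of any distal region found in list 3 alone.

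**Figure D3:**
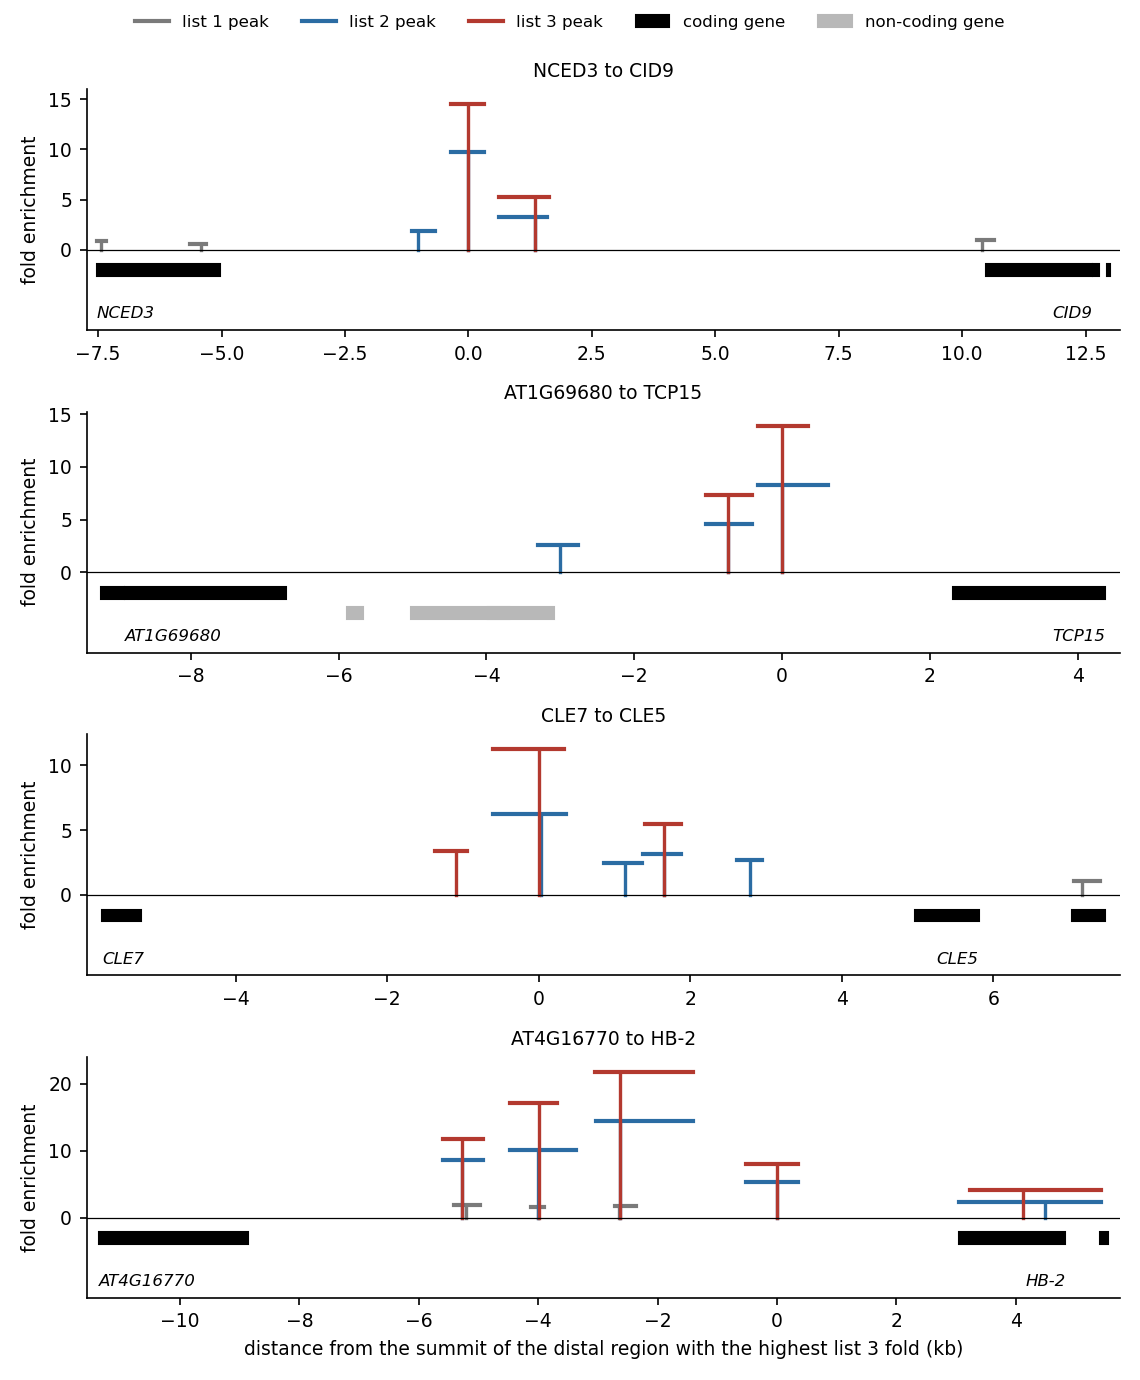
Peaks of lists 1 (grey), 2 (blue) and 3 (red) in 4 gaps between coding genes, from the strongest distal regions and from HB-2; the horizontal axis is the distance in kb from the summit of the distal region with the highest list 3 fold, the vertical axis the authors' fold enrichment, horizontal bars the peaks, vertical lines their summits, and black and grey boxes coding and non-coding genes, with items clipped 2.5 kb beyond the gap's edges. In the NCED3 gap the peaks at 9.70 and 14.56 stand beside weaker ones, and in the HB-2 gap 3 regions with a list 1 peak lie next to the distal region at 5.36 and 7.97.

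The remaining regions among the 12 with the highest list 3 folds lay beside genes of varied function or of none that the annotation names by symbol. The region beside DEG15, a peroxisomal processing protease gene, spanned 9917602 to 9918270 on chromosome 1 at 2282 bp, with folds of 6.92 and 11.20. The region beside BIM1 spanned 2612572 to 2613297 on chromosome 5 at 2691 bp, with folds of 5.32 and 9.50. BIM1 is a helix-loop-helix partner of the brassinosteroid factor BES1, and a long non-coding RNA gene, AT5G01475, lay within 2 kb of this region. Regions beside genes without a symbol had folds of 6.86 and 10.86 at AT1G33470, 5.42 and 10.72 at AT5G22490, 5.86 and 10.51 at AT1G62480, and 6.76 and 10.33 at AT1G60010. Pseudogenes lay within 2 kb of the regions at AT1G33470 and AT1G60010. The 12 regions were found on all 5 chromosomes, at 2007 to 6029 bp from a coding gene.

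Distal regions with a single list had lower folds and high false discovery rates, none of them under 20%. With list 2 alone, the highest folds were 4.18 beside AT3G32980, 4.11 beside AT1G56460 with 382 tags, 3.34 beside AT4G29200, and 3.28 beside LSH1. LSH1 encodes a nuclear protein known from short hypocotyls of an overexpressing line in light, and its region spanned 10451847 to 10452446 on chromosome 5 at 2279 bp, with a false discovery rate of 65.8%. With list 3 alone, the region beside WRKY40 had a fold of 5.04 and spanned 30380208 to 30380801 on chromosome 1 at 3040 bp, with a false discovery rate of 100%. WRKY40 is a transcription factor of defence and abscisic acid response. The other high ones with list 3 alone were 4.80 beside AT1G29060 and 4.19 beside AT1G12665. None of these reached the folds of the 12 strongest regions with both lists.

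Some gaps between coding genes held more than 1 distal region. Whether this exceeds what the gap lengths alone would give was not tested. The 375 regions lay in 309 gaps, whose median length was 8531 bp, with quartiles of 6442 and 12776. At least 2 distal regions were found in 52 gaps, which together held 118 regions, and at least 3 in 9 gaps. Neighbours in one gap were a median of 1580.5 bp apart, and 16 of the 66 adjacent pairs lay within 1 kb. Of the 52 gaps, 44 held at least 1 region with both lists. Since 56.3% of all distal regions had both lists, most gaps with at least 2 regions would hold one in any case. A gene-near region was also present in 86 of the 309 gaps, or 27.8%. The gap between HXK1, the gene of a hexokinase that senses glucose, and ADS1 held 4 distal regions, of which 1 had both lists at 2.88 and 4.54. The other 3 had single peaks, at 2.57 and 2.06 in list 2 and 3.61 in list 3. The HXK1 gap was singled out after its count had been seen. List 1 peaks lay outside these regions by the rule, and the nearest list 1 summit was a median of 3648 bp away, within 1 kb for 33 regions and within 5 kb for 235.

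The nearest genes of distal regions often had a closer region as well. The 375 regions had 337 different nearest genes, 1.23% of the 27444 coding genes, and for 200 regions the nearest gene had no symbol. Of the 337 genes, 128, or 38.0%, also had a region of list 2 or 3 in the gene or within 2 kb, against 21.3% of all coding genes. Over the 606 genes flanking the gaps on either side the share was 37.6%. The gap length and the gene density that go with these shares were not matched.

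Most genes that PIF4 is known for were not the nearest gene of a distal region, as most coding genes were not. Of 20 shade and PIF target genes, HB-2 was the only one, which is 5% against 1.23% of all coding genes. On either side of a gap with a distal region, nearest or not, stood 4 of the 20, or 20%, against 2.21% of all coding genes. The auxin response gene IAA29, a known PIF4 target, was not nearest to any. Of the Aux/IAA, PIN, YUC, PIF, PHY, BBX, EIN and EIL, ACS and ACO, CKX, EXPA and XTH genes, 0 were nearest to a distal region. This covers only regions without a list 1 peak. Some regions that had one, and so fell outside the rule, were nearest to such genes at over 2 kb. Examples are IAA1 at 2781 bp with 2.89 and 5.11 in lists 2 and 3, and IAA2 at 4778 bp with 3.92 and 5.75. CKX7 had one at 3807 bp, with 2.51 in list 2 and no list 3 peak. The largest of these lists hold 29 Aux/IAA, 31 BBX and 33 XTH genes, and with a background of 1.23% a count of 0 in lists of this size is not a result about them. On either side of such a gap stood 1 Aux/IAA, 1 YUC, 2 ACS or ACO and 1 EXPA gene.

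Auxin response factor genes, which encode the DNA-binding factors of auxin response, were nearest to distal regions at 3 of 23 members, or 13%, against 1.23% of all coding genes. MP, the gene of ARF5 that acts in embryo and vascular patterning, had a region at 6881253 to 6881837 on chromosome 1, 5112 bp away, with folds of 3.91 and 6.84. A further MP region at 6882398 to 6882835, 4132 bp away, had a list 2 peak alone at 2.59. ARF6 promotes hypocotyl growth and flower maturation. Its region spanned 10695455 to 10696788 on the same chromosome, at 4786 bp, and had folds of 3.01 and 4.89. ARF19, an activator known from lateral root formation, was 3843 bp from a region at 6636694 to 6637290, also on chromosome 1, whose folds were 2.55 and 4.30. The MP region with both lists lies above the distal medians of 3.08 and 4.99 for such regions, and those of ARF6 and ARF19 lie below them.

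Gibberellin oxidase genes were nearest to distal regions at 2 of 16 members, or 12.5% against the 1.23% of all coding genes, and the pair has opposite roles. GA3OX1, which makes bioactive gibberellin in its last step, had a region at 5349428 to 5350070 on chromosome 1, 3401 bp away, with folds of 3.19 and 4.92. GA2OX2, which inactivates gibberellin, had a region at 10529790 to 10530270 on chromosome 1, 7463 bp away, with a list 2 peak alone at 2.50. The homeodomain list of 50 genes held 3 nearest to a distal region, or 6%, which are HB-2 and 2 class I members. HB21 had one at 8053144 to 8053706 on chromosome 2, 2089 bp away, with folds of 3.63 and 7.45, and HB53, with 2.60 in list 2 alone, had one on chromosome 5 from 26630963 to 26631603. Of 80 SAUR genes, which encode small auxin-induced proteins, 2 were nearest to a distal region, or 2.5%. AT1G75590 lay 2110 bp from a region with folds of 2.98 and 4.36, at 28385294 to 28386190 on chromosome 1. AT2G46690 had a pair of regions, described below with the microRNA gene MIR166a. Each list holds few such genes, and no list is called distinct from the background here.

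MicroRNA genes are outside the rule's set of coding genes, and 12 distal regions lay within 2 kb of one. Small RNA genes of all kinds (tRNA, snoRNA, snRNA, rRNA and miRNA) lay within 2 kb of 3.73% of distal regions, against 4.26% of gene-near and 3.96% of in-gene regions. These shares are similar for the pooled class. The share near microRNA genes alone was not computed for gene-near and in-gene regions. MIR166a, whose product represses class III homeodomain-leucine zipper genes, was 125 bp from the summit of a region at 19175475 to 19176539 on chromosome 2. That region had folds of 3.36 and 5.20 with 285 and 253 tags. A region with list 3 alone at 3.27, with a false discovery rate of 100%, lay 1260 bp from MIR166a. MIR396a, whose product represses growth-regulating factors, had regions at 484 bp with folds of 2.32 and 4.02 and at 1653 bp with 1.91 and 2.75. MIR156c, whose product represses SPL factors of phase change, was 496 bp from the summit of the widest distal region, 15412396 to 15416349 on chromosome 4. It held 918 tags in list 2 and 783 in list 3, the most of any distal region, while its folds were 2.11 and 3.32. MIR160a, whose product represses auxin response factors, was 889 bp from a region with folds of 2.61 and 3.65, and MIR167a, which represses ARF6 and ARF8, was 1828 bp from one with 2.19 and 3.73. The remaining cases had a single list each, with 3.49 in list 3 at 366 bp and 2.69 in list 2 at 1974 bp from MIR172a, 2.31 in list 2 at MIR156a, 3.26 in list 3 at MIR406 and 3.73 in list 3 at MIR867. Their false discovery rates ran from 47.2%, at 1974 bp from MIR172a, to 97.9% at MIR867. In regions with both lists the list 2 rates ran from 7.18% at MIR156c to 81.9% at MIR167a. The list 3 rates there ran from 14.4% at MIR166a to 94.3% at MIR167a. Of these 12, the region at MIR166a was the one with both folds above the distal medians of regions with both lists.

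Other non-coding genes were more frequent at distal positions than nearer to genes. A non-coding gene or pseudogene covered the position in 55 distal regions, or 14.7%, against 7.84% of gene-near regions and 2.02% of regions inside genes. Within 2 kb one was found for 158 distal regions, or 42.1%, against 28.9% and 21.2%. Pseudogenes covered 27 positions, or 7.20%, against 1.49% gene-near and 0 inside genes, and long non-coding RNA genes covered 22, or 5.87%, against 4.93% and 1.68%. The length of sequence without coding genes differs between these positions and was not matched. Transposons could be looked for only by name, since the annotation used marks 17 genes as such by name, and 0 of these lay within 2 kb of a distal region.

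The regions at long non-coding RNA genes and those at pseudogenes had different values. At long non-coding RNA genes, 16 of 22 regions had both lists, and the median folds were 2.705 in list 2, range 1.70 to 6.76, and 5.075 in list 3, range 3.26 to 11.69 over 16. At pseudogenes, 4 of 27 had both lists and 17 had list 2 alone. Their median folds were 2.00 in list 2, range 1.81 to 2.63 over 21, and 3.32 in list 3, range 2.75 to 4.19 over 10. The list 2 ranges overlap, but the pseudogene regions occupy the low end, and 12 of the 27 lay in gene-poor bins against 1 of the 22. Some regions at long non-coding RNA genes were singled out after their values had been seen. The region beside AUX1, the gene of an auxin influx carrier, at 15967009 to 15967641 on chromosome 2, lay 5544 bp from that gene within AT2G08930 and had folds of 3.29 and 5.16. The region beside GNC, a GATA factor gene of chlorophyll synthesis, at 22994298 to 22994881 on chromosome 5, had 2.43 and 3.87.

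**Figure D4:**
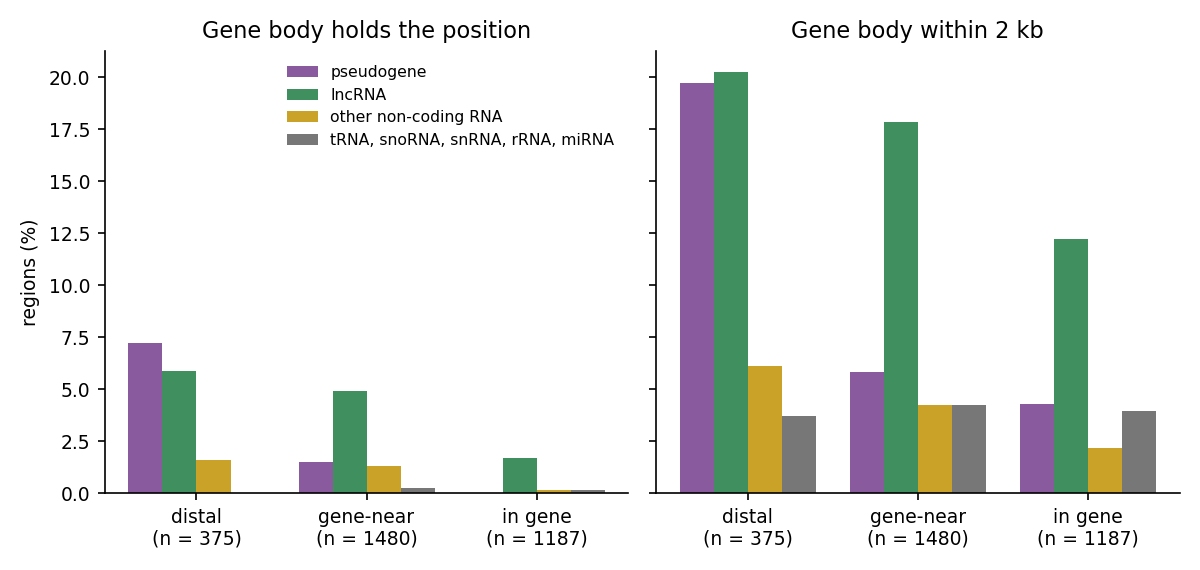
Percent of distal, gene-near and in-gene regions whose position lies within a pseudogene or non-coding gene (left) or within 2 kb of one (right), by class of gene; bars are percentages of the regions of each position. Pseudogenes cover 7.20% of distal positions against 1.49% of gene-near ones, while long non-coding RNA genes cover 5.87% and 4.93%.

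A small group of distal regions lay in the gene-poorest parts of the chromosomes and had other values. The genome was divided into 500 kb bins, and the poorest 10% of them, 24 of 235, held at most 34 coding genes each, against a median of 130. These bins held 39 distal regions, or 10.4%, against 4 gene-near regions, 0.27%, and 19 in-gene regions, 1.6%. The 39 became 12 without list 2, 76 without list 1 and 9 with a peak score of at least 100. Of the 39 regions, 27 had list 2 alone, or 69.2%, and 11 had both lists, or 28.2%. In all other bins 200 of 336 had both lists, or 59.5%. The median list 2 fold was 2.35, range 1.82 to 4.18, against 2.63, range 1.58 to 9.70, elsewhere. The median list 3 fold was 4.40, range 3.15 to 6.35 over 12, against 4.83, range 2.24 to 14.56 over 228. The ranges overlap, and the gene-poor bins lack the high folds. A pseudogene lay at or within 2 kb of 25 of the 39 regions, or 64.1%, against 14.6% elsewhere. A long non-coding RNA gene lay within 2 kb of 1, or 2.56%, against 75 of the 336, or 22.3%.

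The regions farthest from coding genes belonged almost entirely to this group, which goes with how gene-poor bins are defined. Sequence over 2 kb from a coding gene made up 84.4% of the gene-poorest bins and 10.6% of the others. Of the 29 regions over 10 kb away, 28 lay in gene-poor bins and 21 had list 2 alone, and of the 15 over 20 kb away all lay there. The farthest, at 13794253 to 13794698 on chromosome 3, lay 226238 bp from AT3G33187 and had a list 2 peak alone at 2.69. The next, at 11891164 to 11891384 on chromosome 5, lay 185446 bp from AT5G32440 and had both lists at 2.01 and 3.48 with 60 and 46 tags. Those after it had list 2 alone, at 4.18 at 180700 bp from AT3G32980, 2.50 at 68801 bp from AT1G38790, and 1.82 at 52048 bp from AT3G42180, the last within the pseudogene AT3G42220. The fold of 4.18 is the highest of list 2 in the gene-poor bins. How reads that map to several places were treated is not given in the sources used here.

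**Figure D5:**
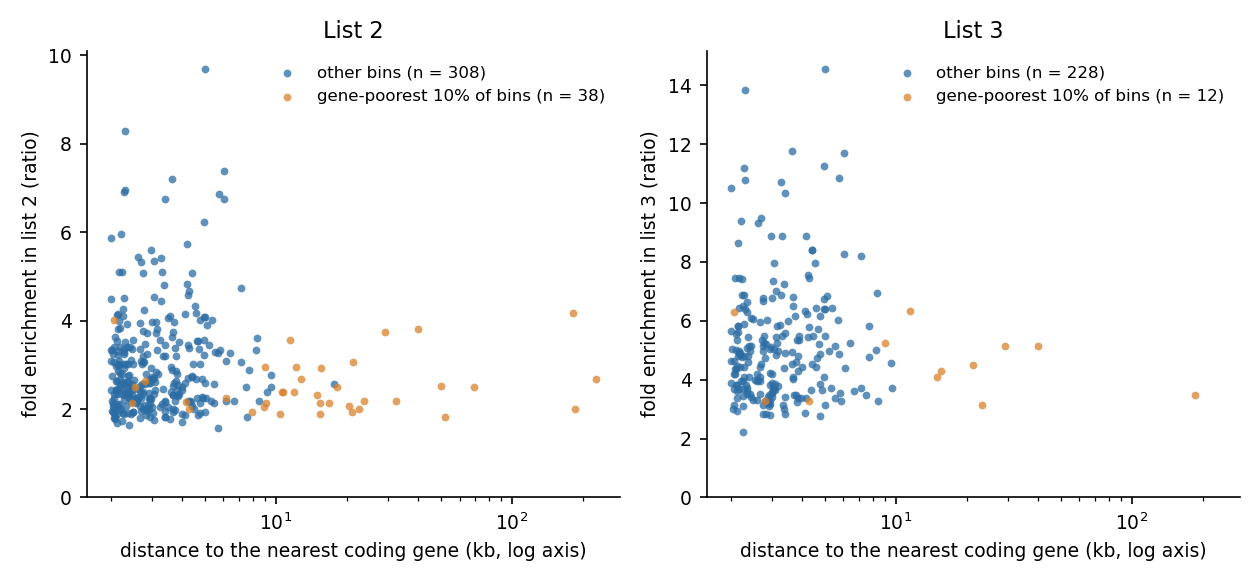
Authors' fold enrichment in list 2 (left, ratio) and list 3 (right, ratio) against the distance to the nearest coding gene in kb on a log axis; each point is 1 distal region, with those in the gene-poorest 10% of 500 kb bins in orange. Folds above 6.35 in list 3 are found only among regions of the other bins, and regions over 20 kb from a gene are orange without exception.

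Distal regions were not sparse where genes are frequent. Positions over 2 kb from a coding gene make up 21.5 Mb of the chromosomes, 18.0% of the length, so that 17.5 distal regions were found per Mb, against 44.6 per Mb of gene-near and 18.4 of in-gene sequence. In the gene-poorest bins the distal density was 3.85 per Mb, against 3.45 gene-near and 26.6 in-gene. In all other bins it was 29.6 per Mb, against 46.1 gene-near and 18.3 in-gene. Outside the gene-poor bins the distal density thus stood between those of gene-near and in-gene sequence.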

How the data were processed

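The members and gene lists were chosen with earlier results of these data known. Per the submitters' processing notes, the build was TAIR10 and the tools were MACS 1.4.1, Bowtie 0.12.7 and CASAVA 1.8.0, and per the file headers peaks were called per PIF4-Myc library against a wild-type library, with MACS 1.4.0rc2 for lists 1 and 3 and 1.4.1 for list 2. Tags per peak are read counts deposited by the authors for lists 2 and 3, and are treated as a score in list 1, where all values are multiples of 5. The peak score deposited by the authors is a multiple of −log10 of the p-value. Fold enrichment is the authors' ratio per peak, and the false discovery rate is a percent from the authors' peak calling. Starts, ends and summits are deposited positions in bp.

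Peaks were merged and placed as the report states with Python 3.11.15, pandas 2.3.3, numpy 2.4.6 and scipy 1.17.1, and the steps were tested on simulated data. A fold, width or tag number is that of the peak with most tags of its list in the region. Genes came from the RefSeq annotation of TAIR10.1, taken to share nuclear coordinates with TAIR10; it has no strand, so upstream and downstream are not told apart. Scaled tags use the header's filtered tags, 8634942 for list 2 and 10730507 for list 3; list 1's, 112342435, exceeds its total of 12766185 and was not used.

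Regions named are the 12 with the highest list 3 fold among those with both lists, 4 each with 1 list, the 5 farthest, 3 on each side of the 2 kb limit, and those whose nearest gene is on a list or that have a microRNA gene within 2 kb. One region that this rule names is not reported here. All other named regions were chosen after their values were seen. Columns of other series numbered 0. No comparison of groups was possible, since the wild type entered only as control.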

Additional observations from a re-analysis of the deposited data

How the results depend on the processing

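The number of distal regions, 375, depended most on the peak threshold and the distance limit. With a peak score of at least 100 in lists 2 and 3 it was 160, with 103 in both lists, a share of 14.1%, median folds of 3.41 and 6.02, 9 in gene-poor bins and 61 near a non-coding gene. At a false discovery rate of at most 1% in every list it was 11, with 1 in both lists and a share of 14.5%. The list 2 median was 8.64, with 0 in gene-poor bins and 2 near a non-coding gene. The list 3 value, 21.8, is the fold of 1 region, 5677 bp from HB-2, which also has a list 1 peak. At this setting list 1 peaks also drop out, so regions enter that the rule had left out. A limit of 1 kb gave 755 regions, 459 in both lists, 24.8% and 283 near a non-coding gene. A limit of 5 kb gave 73, 32, 2.40% and 47. With as many best-ranked list 1 peaks as list 3 has, the share was 11%.

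Leaving out each list in turn gave 244 (without list 2) to 525 (without list 1) regions, 12 to 76 in gene-poor bins (without list 2 and without list 1) and 94 to 236 near a non-coding gene. The share ranged from 11.5% to 13%, the list 2 median from 2.60 to 2.66 and the list 3 median from 4.81 to 4.94, and 274 regions had both lists without list 1. Of 66 alternatives, 39 stayed within the limits set and 27 moved. A reversal was not among the labels, since counts, shares and medians have no direction. The limits differed by result. They were 11.2 to 13.5% for the share, 2.5 to 2.7 for the list 2 median and 4.54 to 5.04 for the list 3 median. The counts were labelled without an interval of this kind. No paired analysis was possible because the lists come from PIF4-Myc libraries alone and no test was run. Depth per position is unknown, so folds have no counting interval.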

Other observations

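Regions that also had a list 1 peak were outside the rule. Of 1527 regions of list 2 or 3 with a list 1 peak, 150, or 9.82%, lay over 2 kb from a coding gene, and 63 of these had peaks in all 3 lists. Their median folds were 1.19 in list 1, range 0.55 to 3.01, 2.79 in list 2 and 5.21 in list 3. The strongest in list 3 lay in the gap between AT4G16770 and HB-2 on chromosome 4. The region at 9443015 to 9444672, 5677 bp from HB-2, had folds of 1.80, 14.46 and 21.78 in lists 1, 2 and 3, above any distal region without a list 1 peak. Regions at 9441603 to 9442704 and 9440474 to 9441153 in the same gap had 1.6, 10.06 and 17.10, and 1.89, 8.64 and 11.66. Other strong ones lay beside AT2G28060, with 1.46, 9.72 and 16, beside RTFL21, with 1.63, 8.76 and 12.70, and beside nMAT1, with 1.66, 7.20 and 12.08.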
